A study of Homo sapiens with 94 samples.

Results

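NCI-H226 xenograft tumors taken 24 h after 1 oral dose of K-975 at 200 mg/kg were compared with tumors of the same study taken 24 h after the dosing vehicle. The comparison holds the 5 libraries of the treated cage group and the 4 libraries of the vehicle cage group, 9 of the 94 libraries of the series. NCI-H226, an established human line from a pleural mesothelioma, lacks NF2 by deletion, and the tumors grew under the skin of female CB17 SCID mice, a strain without functional B and T cells. Treated and vehicle animals both received 20 mL/kg by mouth of a mixture of ethanol, Solutol and glucose solution, with or without the compound. Untreated tumors of the same study (n = 5), which received neither, served as a second control. The vehicle group holds 4 libraries and each other group of this study 5, and the labels do not say why. All treated animals came from cage group 3 and all vehicle animals from cage group 2, and effects of the cage group cannot be told apart from those of the dose. All tumors derive from 1 cell line, and each library is 1 tumor of 1 animal.

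TEAD1 to TEAD4 are DNA-binding proteins that activate transcription together with the co-activators YAP1 and WWTR1 (TAZ). The Hippo kinases STK3, STK4, LATS1 and LATS2 form a cascade that is regulated by upstream proteins such as NF2 and WWC1. When the cascade is active, both co-activators are phosphorylated and kept out of the nucleus, so loss of NF2 leaves YAP1 active. TEAD proteins carry a palmitate in a central lipid pocket, and K-975 binds covalently in that pocket. CCN1 (CYR61), CCN2 (CTGF) and ANKRD1 are textbook targets of the complex, and YAP1-TEAD activity is known in mesothelioma for supporting proliferation.

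Expression was given as FPKM, fragments scaled to transcript length and library total, of RNA enriched by capture probes. No read counts are given, so the depth of the libraries is unknown. Genes at an FPKM of at least 1 numbered 11356 to 11422 in the vehicle tumors, 11424 to 11613 in the treated tumors and 11344 to 11443 in the untreated tumors. The correlation of log2 values between any pair of the 9 libraries lay between 0.9747 and 0.9886. For NF2, 7 of the 9 libraries had a value of 0 and the highest was 0.148. POLR2A, a gene every cell uses, was also at 0 in 3 of the 9, so an entry of 0 need not mean a silent gene. Of 15 mesothelial markers, 14 were at an FPKM of at least 1 in every library, and CALB2 (calretinin) lay at 485 to 554 FPKM with vehicle. Human genes known as markers of host tissues ranged from absent to abundant. The host is the mouse and the handling of mouse reads is not given, so these levels cannot be read as host content. In all 9 libraries, 12 of 19 leukocyte markers, 8 of 10 muscle markers, all 8 adipocyte markers and 6 of 7 erythroid markers, but only 5 of 11 endothelial and 2 of 12 fibroblast and pericyte markers, were below an FPKM of 1. The fibroblast genes COL1A1 and COL3A1 and the endothelial receptor KDR were measured in each library, and the leukocyte markers TYROBP, AIF1 and CD3E were listed at 0.

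Tumors treated with K-975 had less TEAD4, less WWC1 and less of the YAP/TAZ targets CCN1, CCN2, IGFBP3 and AXL than vehicle tumors. They also had lower levels of 12 of 24 tested sterol synthesis genes and 5 of 39 tested replication genes. TXNIP, DENND3 and KLHL4 were among the genes with higher levels. Of 11657 genes tested, 324 (2.78%) differed between treated and vehicle tumors at an adjusted p under 0.05 (limma on log2(FPKM + 1)), and are called changed below. Values in brackets after a gene name are its log2 fold change and limma adjusted p unless another quantity is named. Of the 324 genes, 175 (1.5%) were higher and 149 (1.28%) lower in the treated tumors. Among all genes tested, called or not, 6347 had a positive and 5310 a negative log2 fold change. With each library shifted to an equal median the split was 155 higher and 218 lower, while the values as deposited had a median change of 0.03 over all genes (log2). Among the called genes, 46 rose and 36 fell by at least 1 on the log2 scale, and the median size of the change was 0.77. In 159 of the higher and 135 of the lower genes, all 5 treated tumors lay beyond all 4 vehicle tumors, a pattern that 4.49% (above) and 3.54% (below) of all tested genes had. An unadjusted p under 0.05 was reached by 2500 genes (21.4%). When the spread between tumors was estimated from the 91 libraries of the series with more than 10000 genes at an FPKM of at least 1, 1009 genes (8.66%) were called, 519 higher and 490 lower, and 292 of the 324 were among them. In a bulk tumor, fewer cells expressing a gene and less RNA per cell cannot be told apart.

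**Figure D1:**
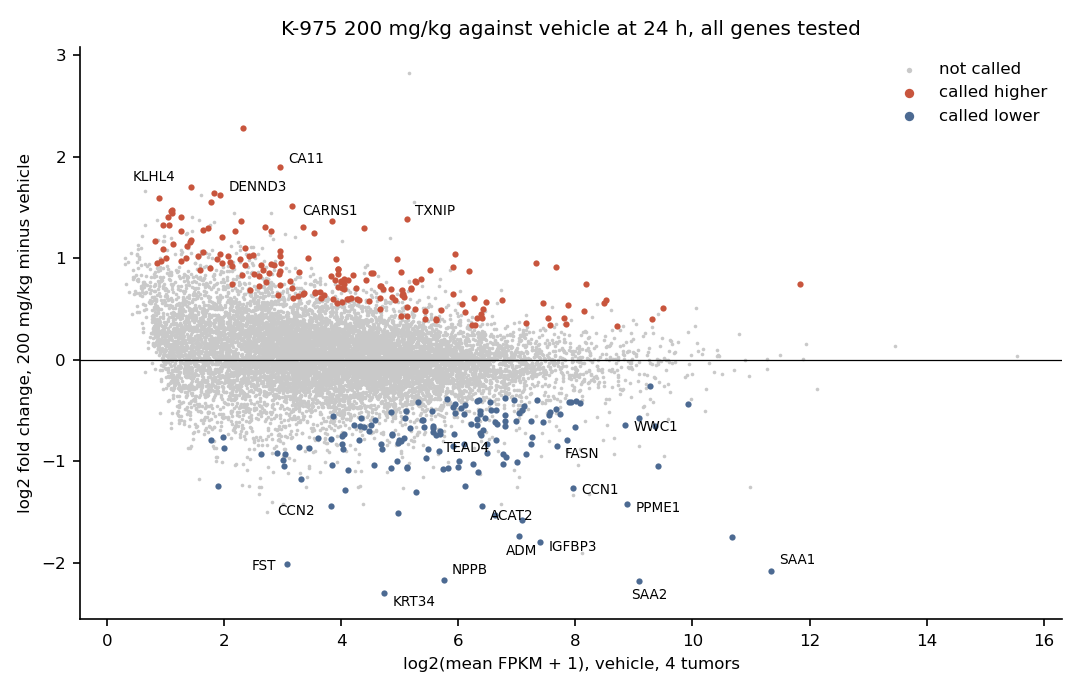
Log2 fold change (200 mg/kg minus vehicle) of the 11657 genes tested against the log2 of their mean FPKM + 1 in the 4 vehicle tumors. Each point is 1 gene, grey where it was not called and colored for the 175 genes called higher and the 149 called lower. Genes called lower include SAA1, SAA2, PPME1 and CCN1 at high vehicle levels and CCN2 and FST at lower ones. The vehicle values enter both axes, and a gene could pass the filter through the treated tumors alone. The pattern at low expression is thus partly built in.

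The number of calls depended on single tumors. Without treated replicate 2 it was 1351 (728 higher, 623 lower), and without treated replicate 1, 3, 4 or 5 it was 70, 66, 118 and 58. Without vehicle replicate 1, 2, 3 or 4 it was 36, 25, 37 and 224. Only 23 genes were called in each of these 9 fits, and counts within gene lists depended on single tumors too. List counts given below for these fits stand beside these totals, each out of all 11657 tested genes. Treated replicate 2 lay nearest to vehicle in 95 of the 149 lower genes and in 113 of the 175 higher genes. Its median difference from the vehicle mean over the lower genes was -0.46 on the log2 scale, against -0.84, -0.77, -0.69 and -0.78 in treated replicates 1, 3, 4 and 5. This tumor was not shallow, with a relative depth of 1.06 among treated libraries that ranged from 0.785 to 1.67.

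No gene was called between vehicle and untreated tumors (0% of 11657 by limma, with 441 genes, or 3.78%, at an unadjusted p under 0.05), a comparison with the same group sizes. With the untreated tumors in place of vehicle, 137 genes were called higher and 136 lower at 200 mg/kg. Of the 324 genes called against vehicle, 139 were called in this fit too, which has the 5 treated tumors in common.

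Within the TEAD family, TEAD4 was called and the other 3 members were not. TEAD4 (ENSG00000197905.8, chromosome 12, 2959330 to 3040673 on the plus strand, GRCh38) stood at 52.3, 46.2, 45.8 and 48.4 FPKM in vehicle replicates 1 to 4 and at 26.5, 32.9, 26.6, 27.4 and 28.6 FPKM in treated replicates 1 to 5. Every treated tumor was below every vehicle tumor, and the log2 fold change was -0.74 (SE 0.10, limma adjusted p = 0.0063). It was called with any 1 of the 9 libraries left out. TEAD1, the most abundant of the family here by FPKM, which is per length, was at 89.1 to 120 FPKM with vehicle and 87.5 to 129.9 FPKM with K-975 (log2 fold change 0.06, adjusted p = 0.831). TEAD3 gave -0.13 (adjusted p = 0.606). TEAD2 was the lowest of the 4 with vehicle, at 7.48, 8.14, 7.44 and 9.45 FPKM, and was measured at 12.1, 9.51, 14.4, 11.1 and 14.8 FPKM in the treated tumors. All its treated values were above all vehicle values, but the log2 fold change of 0.54 was not past the threshold (adjusted p = 0.0813).

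RNA of the cofactors that bind TEAD did not pass the test. YAP1 was at 65.9 to 81.6 FPKM with vehicle and 60.5 to 81.4 FPKM with K-975 (log2 fold change -0.04, SE 0.10, limma adjusted p = 0.843), and WWTR1 at 9.46 to 20.1 FPKM and 11.1 to 20.1 FPKM (0.01, SE 0.23, adjusted p = 0.988). VGLL3 and VGLL4, vestigial-like proteins that also bind TEAD, had values of -0.09 and 0.02 (adjusted p = 0.758 and 0.936). In each of these 4 genes the range of the treated tumors overlapped that of the vehicle tumors. VGLL1 was listed at 0 in all 9 libraries, and VGLL2 did not exceed 0.683. Of the 10 list members, 8 were tested, and 1 was called lower and none higher, against 1.28% of all tested genes called lower. The median log2 fold change was -0.02, against 0.03 over all tested genes.

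CCN2, a secreted matricellular protein and a direct TEAD target, was one of the 12 called genes with the lowest fold changes among those without overlap between the groups. It is ENSG00000118523.5 on chromosome 6. Vehicle replicates 1 to 4 had 13.1, 12.9, 10.9 and 16 FPKM and treated replicates 1 to 5 had 2.38, 5.72, 4.37, 4.93 and 4.2 FPKM. The highest treated value was well below the lowest vehicle value, and the log2 fold change was -1.44 (SE 0.21, limma adjusted p = 0.00851). The call held with each library left out in turn (highest adjusted p 0.0423). The 250 bases before its transcription start (RefSeq, GRCh38.p14, chr6:131951373-131951622, minus strand) are shown because they hold the letters TEAD proteins are known to bind. They contain GGAATG 3 times, from 169 to 164, from 104 to 99 and from 95 to 90 bases before the start, and 1 inverted CCAAT box. Capitals mark GGAATG or its reverse complement CATTCC, and CCAAT or its reverse complement ATTGG, the letters bound by NF-Y.
CCN2: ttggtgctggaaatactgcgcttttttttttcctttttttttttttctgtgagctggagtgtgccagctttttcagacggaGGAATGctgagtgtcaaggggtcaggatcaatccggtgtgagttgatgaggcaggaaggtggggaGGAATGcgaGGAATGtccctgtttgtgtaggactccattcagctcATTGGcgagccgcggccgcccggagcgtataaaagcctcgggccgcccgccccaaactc

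GGAATG or CATTCC was found in the same window of 9.41% of 9460 tested genes with a RefSeq promoter, in 10 of 111 (9.01%) of the genes called lower, in 9 of 139 (6.47%) of the genes called higher and in 6 of 16 (37.5%) YAP/TAZ target genes. The share among genes called lower was thus close to that of all tested genes. A match of 6 letters is a description and not a binding site.

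CCN1, the paralog of CCN2, was at 268, 268, 263 and 196 FPKM with vehicle and 71.9, 167, 94.9, 98.3 and 99.9 FPKM with K-975. Replicate 2 was the highest treated tumor and vehicle replicate 4 the lowest of its group, and the groups did not overlap. The log2 fold change was -1.26 (SE 0.19, limma adjusted p = 0.0127), with an adjusted p of up to 0.0577 when 1 library was left out. IGFBP3, which binds insulin-like growth factors in the extracellular fluid, fell the most of the YAP/TAZ target list. Its values were 177, 170.2, 138 and 187 FPKM with vehicle and 23.7, 94.7, 44.2, 46.2 and 51.1 FPKM with K-975, a log2 fold change of -1.80 (SE 0.29, limma adjusted p = 0.0142). The receptor tyrosine kinase AXL was the fourth called target. It stood at 221, 219, 225 and 182 FPKM with vehicle and at 138, 198, 144, 121 and 138 FPKM with K-975, where treated replicate 2 lay above vehicle replicate 4 and the other 4 treated tumors below all vehicle tumors (log2 fold change -0.53, adjusted p = 0.0474). Of 22 YAP/TAZ target genes, all tested, 4 were called lower and none higher, 17 had a negative log2 fold change and the median was -0.46. With the spread of the 91 libraries 8 of the 22 were called, again all lower. Among all tested genes 1.28% were called lower, or 4.2% with the spread of the 91 libraries. The count for the 22 targets was 1 without vehicle replicate 1 or 2, 2 without vehicle replicate 3, 9 without treated replicate 2 and 3 or 4 without any other library, while their median stayed between -0.50 and -0.40.

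**Figure D2:**
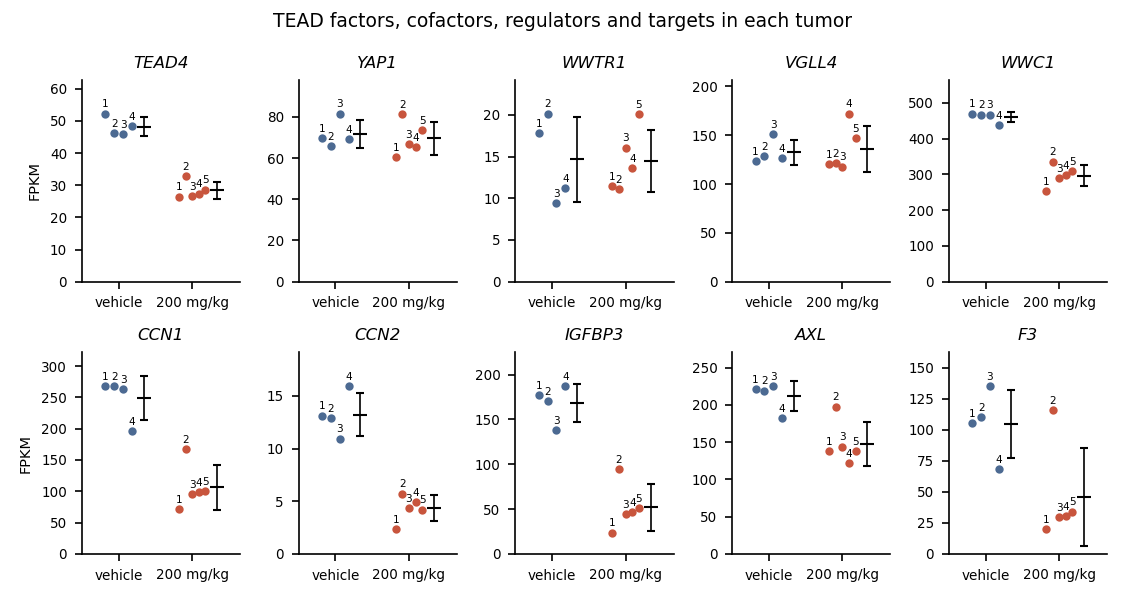
FPKM of 10 genes of the pathway in each tumor, on linear axes that start at 0. Numbers are replicates, and the bar beside each group is the mean with 1 SD (n = 4 for vehicle, n = 5 for 200 mg/kg). TEAD4, WWC1, CCN1, CCN2 and IGFBP3 do not overlap between groups, whereas YAP1, WWTR1 and VGLL4 do, and treated replicate 2 stands high for F3.

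F3 (tissue factor) and NT5E (CD73), both surface proteins, had large differences that did not pass the test, with treated replicate 2 near the vehicle level in each. F3 was at 105, 110, 136 and 68.2 FPKM with vehicle and at 19.7, 116, 29.7, 30.4 and 34.2 FPKM with K-975 (log2 fold change -1.43, SE 0.40, limma adjusted p = 0.0734). NT5E was at 283, 274, 288 and 203 FPKM and 60.4, 232, 136, 102 and 163 FPKM (-1.04, SE 0.30, adjusted p = 0.0791). With the spread of the 91 libraries both were called, at 0.0146 and 0.0283, as were CRIM1 (-0.28, 0.00945) and GADD45A (-0.56, 0.0329). ANKRD1, a stretch-responsive muscle repeat protein, was low in both groups, at 2.14, 2.01, 1.58 and 1.5 FPKM with vehicle and 0.473, 1.58, 0.618, 0.235 and 0.95 FPKM with K-975 (-0.71, adjusted p = 0.125). LATS2 (-0.51, 0.0788) and AMOTL2 (-0.40, 0.0691), which restrain YAP1 and are themselves its targets, lay below all vehicle tumors in all 5 treated tumors without passing. The log2 fold changes of FJX1 (-0.60), NUAK2 (-0.35), TGFB2 (-0.60), CCDC80 (-0.13), DOCK5 (-0.13) and MYOF (-0.11) were negative and not called. Those of ARHGEF17 (0.39), PTPN14 (0.34), RBMS3 (0.19), FOXF2 (0.05) and ASAP1 (0.04) were positive and not called.

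Upstream of YAP1, WWC1 (KIBRA, ENSG00000113645.14, chromosome 5, 168291651 to 168472303 on the plus strand), a scaffold of the Hippo kinases, was lower in every treated tumor. It was at 470.2, 468, 468 and 438 FPKM with vehicle and 252, 336, 289.5, 298 and 308 FPKM with K-975, a log2 fold change of -0.64 (SE 0.08, limma adjusted p = 0.0061), and it was called with any 1 library left out. It was the only called member of 21 tested Hippo kinases and regulators, against 1.28% of all tested genes called lower. The list median was -0.25, with 15 of 21 negative. That median was -0.08 without vehicle replicate 2 and -0.14 against the untreated tumors. FRMD6, another upstream scaffold (-0.50, 0.0975), and the kinase MAP4K4 (-0.05, 0.841), the most abundant uncalled members, did not pass. With the spread of the 91 libraries 4 members were called lower, and without treated replicate 2 there were 6 called members. Among all 11657 tested genes these fits called 490 lower and 1351 in either direction, respectively.

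The study's own lists of TEAD effectors, derived from public datasets and not chosen on these tumors, had medians of opposite sign. Of 249 positive effectors 227 were tested, of which 31 were called lower and 1 higher (FMR1, log2 fold change 0.48, limma adjusted p = 0.0322), and 183 had a negative log2 fold change (median -0.32). Of 233 negative effectors 175 were tested, of which 6 were called higher and none lower, and 125 had a positive log2 fold change (median 0.19). By tumor, the median of the positive effectors relative to the vehicle mean was -0.43, -0.14, -0.37, -0.26 and -0.35 in treated replicates 1 to 5, against -0.10 to 0.09 in the vehicle tumors. The negative effectors were at 0.14 to 0.24 in the treated and -0.02 to 0.05 in the vehicle tumors. Among all tested genes 1.28% were called lower and 1.5% higher. With 1 library left out, 8 to 79 positive effectors were called, the most without treated replicate 2, and the count was within 1.5 times that of all 9 libraries only without vehicle replicate 4. No negative effector was called in 7 of these 9 fits, against 2 without vehicle replicate 4 and 22 without treated replicate 2. The medians stayed between -0.35 and -0.29 and between 0.18 and 0.21. The lists share members with several lists described here. The 6 called positive effectors with the lowest p were ACAT2, SKP2, WWC1, CENPM, MVD and TEAD4. CENPM, a centromere protein, was at 16.5, 17.7, 16.4 and 14.8 FPKM with vehicle and 5.93, 7.75, 6.8, 8.43 and 7.11 FPKM with K-975 (log2 fold change -1.09, SE 0.14, limma adjusted p = 0.0061). The 6 called negative effectors were GSN (gelsolin, which severs actin filaments), EEIG1, ALDH3A2 (a fatty aldehyde dehydrogenase), MTMR11, NAGK (N-acetylglucosamine kinase) and PCDHB2. Their log2 fold changes were 1.27, 0.70, 0.61, 0.83, 0.59 and 0.66. GSN rose from 7.48, 6.84, 4.01 and 5.74 FPKM to 22.1, 8.78, 17.6, 17.8 and 14.8 FPKM without overlap. PCDHB2 belongs to a cluster of similar protocadherin genes, among which reads could be shared.

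The 5 genes with the lowest adjusted p were PPME1, DENND3, KCND3, SKP2 and ACAT2, and each was called with any 1 library left out. PPME1 (ENSG00000214517.9, chromosome 11, 74171099 to 74254703 on the plus strand), which demethylates the catalytic subunit of the phosphatase PP2A, was at 433, 513, 579 and 366 FPKM with vehicle and 148, 201, 161, 214 and 154 FPKM with K-975 (log2 fold change -1.42, SE 0.14, limma adjusted p = 0.00503). KCND3, a voltage-gated potassium channel, fell from 51.6, 53.6, 56.6 and 61.3 FPKM to 28.1, 20.1, 26.7, 29.1 and 27.8 FPKM, and here treated replicate 2 was the lowest of all tumors (-1.06, SE 0.12, adjusted p = 0.00503). SKP2, the ubiquitin ligase subunit that marks the cell cycle inhibitor CDKN1B for degradation, was at 106, 117, 128 and 81 FPKM with vehicle. In the treated tumors it was at 55.4, 53.4, 50.4, 50.5 and 48.9 FPKM (-1.03, SE 0.12, adjusted p = 0.00518). ACAT2, the cytosolic thiolase at the entry of the mevalonate pathway, was at 72.7, 84.6, 105 and 72.3 FPKM and 23.3, 41.5, 25.7, 34.8 and 27.8 FPKM (-1.44, SE 0.17, adjusted p = 0.00518).

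The 12 called genes with the lowest fold changes and no overlap between the groups were KRT34, SAA2, NPPB, SAA1, FST, IGFBP3, PI3, ADM, KISS1, CCN2, ACAT2 and PPME1. KRT34, a type I keratin of hair, was at 25.2, 28, 33.6 and 16.1 FPKM with vehicle and 2.77, 13, 3.71, 4.35 and 2.05 FPKM with K-975. All treated tumors were lower, replicate 2 the least, and the log2 fold change was -2.30 (SE 0.38, limma adjusted p = 0.0164). NPPB, the precursor of brain natriuretic peptide, had 60.6, 49.4, 51.9 and 49.3 FPKM with vehicle and 6.11, 36.3, 5.34, 13.2 and 9.09 FPKM with K-975 (-2.17, SE 0.41, adjusted p = 0.026). The acute-phase genes SAA1 and SAA2 were among the most abundant transcripts. SAA1 was at 2450, 2781, 2089 and 3060 FPKM with vehicle and 261, 929.8, 631, 645 and 843 FPKM with K-975 (-2.08, SE 0.30, adjusted p = 0.00851). SAA2 was at 548, 575, 405 and 649 FPKM and 41, 178, 154, 123 and 164 FPKM (-2.18, SE 0.35, adjusted p = 0.016). Both are near-identical neighbors that can share reads, so their separate values are uncertain. In both, treated replicate 1 was the lowest tumor.

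FST (follistatin), which binds and neutralizes activin, was low, at 11.4, 7.8, 6.32 and 4.21 FPKM with vehicle and 1.83, 1.69, 2.01, 0 and 0.36 FPKM with K-975, with 1 treated tumor listed at 0 (-2.01, SE 0.37, limma adjusted p = 0.0249). Against the untreated tumors (0.842 to 12.6 FPKM) it was not called (-0.92, adjusted p = 0.321). PI3 (elafin), an inhibitor of elastase, was at 1655, 1701, 1262 and 1905 FPKM with vehicle and at 230.2, 937, 684, 274 and 628 FPKM with K-975 (-1.75, adjusted p = 0.0395), and was not called with the spread of the 91 libraries (0.119). KISS1, the precursor of kisspeptin, was at 26.9, 32.2, 35.5 and 27 FPKM and 6.07, 22.4, 5.47, 12.7 and 9.83 FPKM (-1.51, adjusted p = 0.0368). PI3 and KISS1 were each called in only 1 of the 9 fits that left out a library.

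Among the 12 called genes with the highest fold changes and no overlap, TXNIP was the most abundant. TXNIP (ENSG00000265972.5, chromosome 1, 145992435 to 145996600 on the minus strand), an arrestin-like protein that restrains glucose uptake and binds thioredoxin, was at 27.8, 30, 32 and 45.1 FPKM with vehicle and 119.7, 62.8, 99, 74.8 and 95.5 FPKM with K-975. All treated tumors were above all vehicle tumors, and the log2 fold change was 1.38 (SE 0.19, limma adjusted p = 0.00647). CARNS1, which makes the dipeptide carnosine, rose from 8.99, 7.74, 5.9 and 9.14 FPKM to 37.9, 15.1, 25.5, 20 and 28.4 FPKM (1.51, SE 0.23, adjusted p = 0.012). CA11, a carbonic anhydrase-related protein without the enzyme activity, was at 3.9, 3.96, 8.61 and 10.6 FPKM with vehicle and 35.2, 12.2, 24.1, 34.7 and 32.5 FPKM with K-975 (1.90, adjusted p = 0.0216). Against untreated tumors (7.38 to 38.8 FPKM) its log2 fold change was 0.98 (adjusted p = 0.20).

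Most of the other rising genes were low with vehicle, where the log2(FPKM + 1) scale understates a change. Such genes could pass the filter through the treated tumors alone. DENND3, an exchange factor of the Rab family, was at 2.91, 3.43, 2.76 and 2.15 FPKM with vehicle and 11.7, 8.68, 9.08, 13.8 and 11 FPKM with K-975 (log2 fold change 1.63, SE 0.18, limma adjusted p = 0.00503). KLHL4, a kelch-like protein, was at 2.17, 1.08, 1.42 and 2.17 FPKM and 10.9, 5, 8.46, 6.89 and 8.24 FPKM (1.70, SE 0.23, adjusted p = 0.0063). AMY2B, an amylase gene of a cluster of near-identical copies, gave 1.41 (adjusted p = 0.00851) and LRRC51 gave 1.45 (0.0112), and both were called with any 1 library left out. PAFAH2, an intracellular acetylhydrolase, was at 0.26 to 1.28 FPKM with vehicle and 2.8 to 7.15 FPKM with K-975 (1.60, 0.0214). HECW1, a ubiquitin ligase, was at 0.652 to 2.31 FPKM and 3.18 to 6.41 FPKM (1.47, 0.0233). The atypical chemokine receptor ACKR1 (1.55, 0.0415), SEPTIN4 (1.47, 0.0403) and GOLT1A (1.41, 0.0429) were called in 1, 1 and 2 of the 9 fits without a library.

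**Figure D3:**
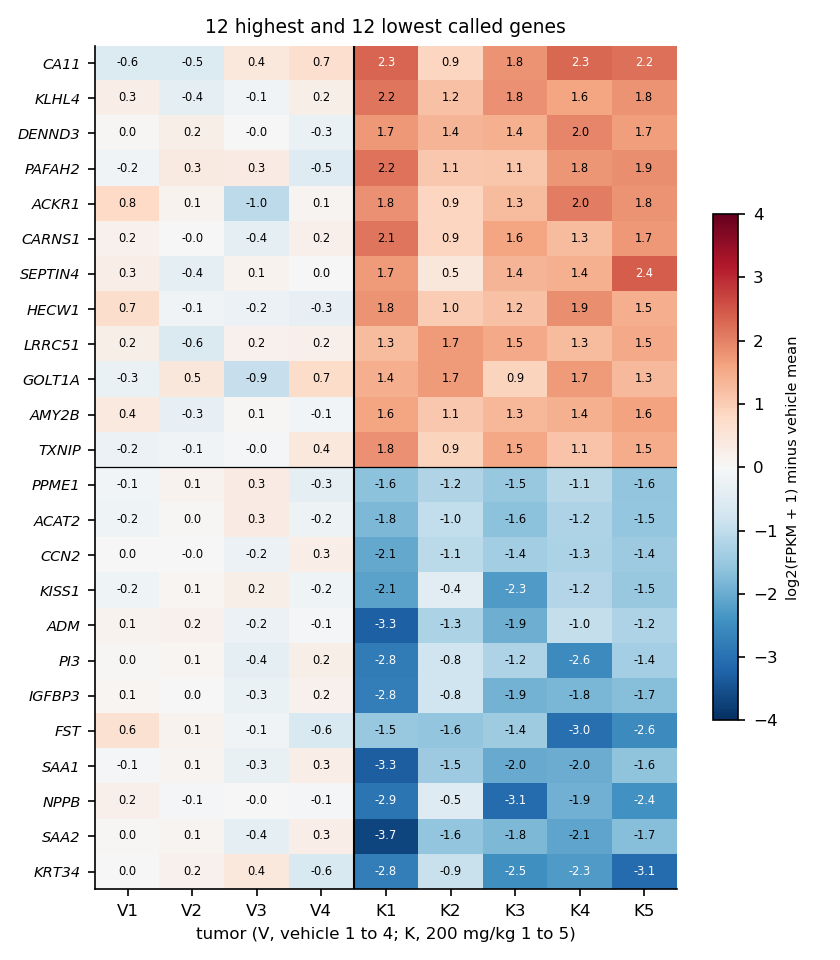
The 12 highest and 12 lowest log2 fold changes among called genes with no overlap between groups, in each of the 9 tumors. Color and number give log2(FPKM + 1) minus the mean of the vehicle tumors; columns V1 to V4 are vehicle and K1 to K5 are 200 mg/kg, and K2 is the palest treated column in most rows.

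Promoters of 15 of the 25 genes CCN1, CCN2 and the 24 highest and lowest called genes (CCN2 is in both) were in the RefSeq table. CCN2 was the only 1 of the 15 with GGAATG or CATTCC in the 250 bases before its start. The windows of a further 3 are shown as examples from both directions, FST (chr5:53480379-53480628, plus strand) and IGFBP3 (chr7:45921273-45921522, minus strand), which fell, and TXNIP (chr1:145996580-145996829, minus strand), which rose. Capitals mark the same letters as above. FST holds 1 inverted CCAAT box, TXNIP 1 in each orientation, and IGFBP3 neither motif.
FST: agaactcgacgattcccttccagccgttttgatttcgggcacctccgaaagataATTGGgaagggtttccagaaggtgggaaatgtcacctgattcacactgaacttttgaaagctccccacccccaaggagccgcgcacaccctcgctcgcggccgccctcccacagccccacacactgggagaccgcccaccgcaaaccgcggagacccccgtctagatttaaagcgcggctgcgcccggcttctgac
IGFBP3: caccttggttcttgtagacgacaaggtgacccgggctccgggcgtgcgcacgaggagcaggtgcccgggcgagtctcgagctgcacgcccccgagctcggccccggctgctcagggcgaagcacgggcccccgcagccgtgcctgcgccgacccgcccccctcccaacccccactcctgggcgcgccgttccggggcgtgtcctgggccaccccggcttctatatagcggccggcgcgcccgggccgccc
TXNIP: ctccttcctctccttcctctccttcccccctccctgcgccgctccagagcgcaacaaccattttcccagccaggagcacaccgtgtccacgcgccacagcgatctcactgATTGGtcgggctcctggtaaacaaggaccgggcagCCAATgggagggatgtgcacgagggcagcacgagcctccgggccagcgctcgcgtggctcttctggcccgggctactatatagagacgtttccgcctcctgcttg

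The called genes of sterol synthesis were all lower. Of 24 tested genes of the mevalonate and cholesterol pathway and its SREBP2 targets, 12 were called lower and none higher, against 1.28% of all tested genes called lower. The median log2 fold change was -0.42, and by tumor it was -0.45, -0.42, -0.46, -0.39 and -0.55 in treated replicates 1 to 5 and -0.04 to 0.04 in the vehicle tumors, so replicate 2 did not stand apart here. The count of called members was 3, 2, 2 and 7 without vehicle replicates 1, 2, 3 and 4, 7, 16, 5, 6 and 4 without treated replicates 1 to 5 and 5 without a filter on low values, while the median stayed between -0.46 and -0.41. In 13 of the 24 genes all treated tumors were below all vehicle tumors, and in 1 gene all were above. Of all tested genes 3.54% had the first pattern and 4.49% the second. With the spread of the 91 libraries 13 members were called lower and 1 higher, against 4.2% and 4.45% of all tested genes. In TM7SF2, a sterol reductase, 4 of the 5 treated tumors were above all vehicle tumors (0.86, limma adjusted p = 0.0557).

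Along the pathway, HMGCS1, which makes HMG-CoA, was at 66.6, 77.9, 64 and 59.9 FPKM with vehicle and 39.7, 40.6, 38.8, 43.5 and 26.4 FPKM with K-975 (log2 fold change -0.82, SE 0.14, limma adjusted p = 0.0192). MVD, which forms isopentenyl diphosphate, was at 161, 151, 146 and 153 FPKM and 90.6, 101, 92.7, 97.2 and 71.8 FPKM (-0.76, SE 0.10, adjusted p = 0.0063), and was called with any 1 library left out. FDPS, which makes farnesyl diphosphate, was at 97.8, 114, 130.1 and 105 FPKM and 67.4, 77.6, 52.7, 46.4 and 45.4 FPKM (-0.96, SE 0.16, adjusted p = 0.0164). None of these 3 genes overlapped between the groups. The lanosterol enzymes LSS (-0.38, 0.0281) and CYP51A1 (-0.63, 0.026) were also called. DHCR7 (-0.33, 0.125) and EBP (-0.37, 0.0813), 2 late enzymes and the most abundant uncalled members, did not pass. A CCAAT box in either orientation stood in the 250 bases before the start of 16 of 18 sterol genes with a window (88.9%), against 35.5% of tested genes, 48.6% of those called lower and 30.2% of those called higher.

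In fatty acid synthesis, 2 of 16 tested genes were called, both lower, against 1.28% of all tested genes called lower. The list median was -0.15. None was called without vehicle replicate 1, 2 or 3, 1 without treated replicate 3 and 4 without treated replicate 2. ACLY, which makes cytosolic acetyl-CoA, was at 61.3, 63.9, 62.2 and 55.7 FPKM with vehicle and 40.4, 44.6, 40.9, 45.2 and 39.5 FPKM with K-975 (log2 fold change -0.52, SE 0.09, limma adjusted p = 0.0174). FASN, the fatty acid synthase, fell from 194, 216, 221 and 186 FPKM to 133, 125, 123, 118 and 75 FPKM, with treated replicate 5 the lowest (-0.85, SE 0.15, adjusted p = 0.0203). The desaturase SCD, far more abundant at 1047 to 1562 FPKM with vehicle and 735 to 1288 FPKM with K-975, overlapped between the groups (-0.29, adjusted p = 0.337).

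Genes of G1/S and DNA replication had negative fold changes almost throughout. Of 39 tested, 38 were negative, with a median of -0.54, against 5310 negative of all 11657 tested genes. Called were 5, all lower, against 1.28% of all tested genes called lower. With the spread of the 91 libraries 17 were called lower, against 4.2% of all tested genes. None was called without a filter on low values, without vehicle replicate 1, 2 or 3 or without treated replicate 1, 3 or 5, against 1 without treated replicate 4, 7 without vehicle replicate 4 and 20 without treated replicate 2. The list median stayed between -0.63 and -0.50 with any 1 library left out. UHRF1, which couples replication to DNA methylation, was at 33.3, 30.7, 34.3 and 21.3 FPKM with vehicle and 10.4, 19.9, 13, 15.9 and 13.3 FPKM with K-975 (log2 fold change -1.0, SE 0.19, limma adjusted p = 0.026). The helicase subunits MCM2 (-0.83, 0.0372) and MCM7 (-0.51, 0.0403), the helicase cofactor CDC45 (-1.05, 0.0389) and cyclin CCNE2 (-0.99, 0.039) were the other called members. For MCM2 the tumors read 16.3, 15.8, 15.3 and 13.2 FPKM with vehicle and 6.58, 11.3, 7.77, 6.24 and 9.45 FPKM with K-975, without overlap. TYMS (-0.71, 0.0794) and DUT (-0.30, 0.156), enzymes of thymidylate supply, did not pass. The median by tumor was lowest in vehicle replicate 4 among the controls, at -0.29, and highest in treated replicate 2 among the treated, at -0.24, so the groups overlapped in this summary. E2F letters (TTTCCCGC, TTTGGCGC or TTTCGCGC on either strand) stood in the 250 bases before the start of 13 of 34 replication genes (38.2%), 4.5% of genes called lower and 4.16% of tested genes.

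Mitotic genes varied between tumors of both groups. Of 36 tested, 34 had a negative log2 fold change (median -0.39), against 5310 of all 11657 tested genes. Called was 1, lower, where 1.28% of all tested genes were called lower and 1.5% higher. The list count was 2 without vehicle replicate 4, 12 without treated replicate 2 and 0 without any other library. The fit without treated replicate 2 called 1351 of all tested genes. ANLN (anillin, of the cytokinetic ring) was at 146, 166, 186 and 103 FPKM with vehicle and 67.8, 122, 70.2, 83.2 and 76.2 FPKM with K-975, where treated replicate 2 lay within the vehicle range (-0.83, SE 0.19, limma adjusted p = 0.0428). KIF23 (-0.57, 0.0878) and UBE2C (-0.54, 0.133) did not pass, and treated replicate 2 had a list median of 0.06. Among 16 G1 cyclins, CDKs and inhibitors the median was -0.01, with SKP2 called lower and CCND2 higher. CCND2 (cyclin D2) was at 5.77, 4.79, 4.26 and 7.24 FPKM with vehicle and 16.8, 6.54, 18.5, 19.6 and 18.1 FPKM with K-975, with treated replicate 2 at the vehicle level (1.31, SE 0.28, adjusted p = 0.0375), but against the untreated tumors (7.25 to 38.9 FPKM) its log2 fold change was 0.18 (adjusted p = 0.842). CCND1 (-0.19, 0.236) and CDK6 (0.12, 0.515), far more abundant, were not called.

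Of 33 tested hypoxia-responsive and glycolytic genes, 32 had a negative log2 fold change and 5 were called, all lower (median -0.38). With the spread of the 91 libraries 13 were called lower. Among all tested genes 1.28% were called lower, or 4.2% with the spread of the 91 libraries. No member was called without a filter on low values or without trend and robust fitting. ADM (adrenomedullin), a vasodilator peptide, was at 141, 146, 108 and 123 FPKM with vehicle and 12.4, 52.5, 32.7, 66 and 54 FPKM with K-975 (log2 fold change -1.74, SE 0.37, limma adjusted p = 0.0379). The neuronal-type glucose transporter SLC2A3 was at 88.7, 83.3, 63.4 and 156 FPKM and 16.8, 68.1, 25.6, 26.8 and 38.3 FPKM, where treated replicate 2 exceeded vehicle replicate 3 (-1.53, SE 0.34, adjusted p = 0.042), and LOX, which crosslinks collagen, at 659, 734, 563 and 766 FPKM and 207, 508, 352, 242 and 411 FPKM (-1.05, SE 0.22, adjusted p = 0.0375). Among glycolytic enzymes PGK1 (-0.61, 0.0396) and LDHA (-0.43, 0.0428) were called. The most abundant members, GAPDH at 4298 to 4798 FPKM with vehicle and 3072 to 4234 FPKM with K-975 (-0.29, 0.0823) and ENO1 (-0.39, 0.0614), did not pass. All 5 called genes were called in 3 or fewer of the 9 fits without a library. The count was 17 without treated replicate 2, 1 without treated replicate 1, 2 without treated replicate 4 and 0 without any other library, and the median stayed between -0.46 and -0.32. Of 72 tested subunits of oxidative phosphorylation none was called under either estimate of the spread, and the median was 0.00 (36 positive, 36 negative).

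Of 109 tested genes of 7 stress lists 3 were called, a share of 2.75% against 2.78% of all tested genes. Of 19 tested genes of the integrated stress response 1 was called. It was SLC7A5, the large neutral amino acid transporter, at 98.8, 81.7, 91.9 and 84.4 FPKM with vehicle and 35.4, 58.2, 44.9, 55 and 43.6 FPKM with K-975 (log2 fold change -0.92, SE 0.14, limma adjusted p = 0.0107), and it was called with any 1 library left out. No member of the lists of unfolded protein response (18 tested, median -0.20), NRF2 targets (19, 0.04), heat shock chaperones (16, -0.06) or metallothioneins (4, -0.39) was called. CALR (-0.21), HSPB1 (0.26) and MT2A (-0.58), abundant members of the unfolded protein, heat shock and metallothionein lists, had adjusted p of 0.0973, 0.0983 and 0.146. Of 22 p53 targets 1 was called, DDB2, a DNA damage sensor, which was higher (0.43, 0.0476) and not called with the spread of the 91 libraries (0.0665). Of 15 BCL2 family genes 1 was called, BCL2L13, also higher (0.57, 0.0379).

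Among signaling lists, 4 of 31 tested genes of TGF-beta and activin were called, all lower, against 1.28% of all tested genes called lower. The list median was -0.02. With 1 library left out, 0 to 2 were called, except for 13 (5 higher, 8 lower) without treated replicate 2. That fit called 1351 of all 11657 tested genes. The list median ranged from -0.17 to 0.07. Besides FST they were ID2, an inhibitor of basic helix-loop-helix factors, the receptor TGFBR1 and the inhibin subunit INHBB. ID2 was at 47.7, 52.4, 32.8 and 76.8 FPKM with vehicle and 15.7, 25.8, 24.5, 27.2 and 25.3 FPKM with K-975 (log2 fold change -1.07, SE 0.22, limma adjusted p = 0.0344). TGFBR1 was at 29.6, 27.7, 24.2 and 39.5 FPKM and 15.5, 24.7, 14.7, 15.1 and 14 FPKM, where treated replicate 2 exceeded vehicle replicate 3 (-0.82, adjusted p = 0.0399), and INHBB gave -0.76 (0.0462). TGFBI, an uncalled member, gave -0.53 (0.0673). In the EGFR family the ligand NRG1 (neuregulin) was called lower, at 8.53, 9.09, 11.8 and 6.55 FPKM with vehicle and 2.05, 5.29, 2.52, 5.23 and 2.68 FPKM with K-975 (-1.18, SE 0.26, 0.0389), whereas EGFR itself (-0.15, 0.25) and its inhibitor ERRFI1 (-0.86, 0.122) were not.

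No gene was called among 20 AP-1 and immediate early genes (median -0.18), 16 MAPK feedback genes (-0.13), 10 glucocorticoid-responsive genes (-0.22), 17 clock genes (0.17) or 4 genes of the xenobiotic response (0.46). FOSL1 (FRA-1), an AP-1 subunit, was at 144, 137, 132 and 96.2 FPKM with vehicle and 18.3, 154, 44.4, 64.1 and 46.8 FPKM with K-975, where treated replicate 2 exceeded every vehicle tumor and the other 4 were below all of them (-1.26, SE 0.43, limma adjusted p = 0.125). SGK1, a glucocorticoid-induced kinase, did not overlap between the groups, at 258 to 283 FPKM with vehicle and 79.7 to 217 FPKM with K-975 (-0.88, 0.0522). BHLHE40 of the clock gave -0.36 (0.266).

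Of 8 tested acute-phase genes, SAA1 and SAA2 were called lower, against 1.28% of all tested genes. The complement genes C3 (0.26, 0.389) and CFB (-0.29, 0.422) were not called (list median -0.34). None of 25 tested cytokines and NF-kB targets was called, although 22 had a negative log2 fold change and the median was -0.60. By tumor that median was -1.87 in treated replicate 1 and -0.19, -0.37, -0.09 and -0.27 in replicates 2 to 5, against -0.14 to 0.16 in the vehicle tumors. CCL20 illustrates it, at 288, 331, 191 and 386 FPKM with vehicle and 39.9, 242, 110.3, 145 and 130.4 FPKM with K-975 (-1.32, SE 0.40, limma adjusted p = 0.0873), as does CCL2, at 79.6, 301, 269.9, 373 and 307 FPKM with K-975 against 339 to 404 FPKM with vehicle (-0.64, 0.321). None of 23 interferon response genes (median -0.07) or 16 genes of MHC class I presentation (0.06) was called, and the treated tumors spread to both sides of vehicle.

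Called genes of cell structure were found in both directions. Among all tested genes 1.5% were called higher and 1.28% lower. Of 26 tested genes of the actin cytoskeleton and SRF targets 3 were called, all lower (median -0.14), with 0 to 3 when 1 library was left out, except for 6 without treated replicate 2. ACTN1 (alpha-actinin) was at 185, 189.5, 196 and 176 FPKM with vehicle and 108, 152, 128, 132 and 124 FPKM with K-975 (log2 fold change -0.54, SE 0.09, limma adjusted p = 0.0203). TAGLN (transgelin) fell from 74.3, 79, 102 and 72.6 FPKM to 49.1, 45.5, 52.2, 40 and 60 FPKM (-0.72, 0.0256), and FHL2 gave -0.53 (0.0379), whereas FLNA, at 1342 to 1527 FPKM with vehicle, gave -0.14 (0.265). Of 17 collagens the basement membrane genes COL18A1 (0.41, 0.0428) and COL4A5 (0.41, 0.0496) were called higher, with a list median of -0.04. No collagen was called in 8 of the 9 fits that left out a library, against 4 without treated replicate 2. The fit without treated replicate 2 called 1351 of all 11657 tested genes. Of 22 integrins and laminins, which had a median of 0.23, the integrin ITGA7 was called higher, at 3.15, 4.66, 4.49 and 6.33 FPKM with vehicle and 14.2, 8.73, 8.17, 14.4 and 8.01 FPKM with K-975 (1.03, SE 0.23, 0.0396). ITGB4 (0.49, 0.0619) and ITGA3 (-0.39) had opposite signs, and ITGA3 stood just above the threshold. Among 21 matrix proteases and inhibitors TIMP2 was called higher (0.40, 0.0379) and ADAM12 lower (-1.03, 0.0396), the latter with treated replicate 2 within the vehicle range. No integrin or laminin was called in 6 of the 9 fits that left out a library, and no protease or inhibitor in 7.

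Of 14 tested keratins 2 were called lower and 2 higher (median -0.02), against 1.28% and 1.5% of all tested genes. None was called without vehicle replicate 1, 2 or 3. KRT6A, which has near-identical paralogs, was lower with KRT34, at 14.8, 14.4, 16.2 and 16.1 FPKM with vehicle and 6.62, 8.98, 9.71, 6.13 and 8.58 FPKM with K-975 (log2 fold change -0.88, SE 0.15, limma adjusted p = 0.0204). KRT5 rose from 729, 702, 803 and 669 FPKM to 1265, 881, 1022, 1076 and 963 FPKM (0.51, 0.026) and the mesothelial and simple epithelial keratin KRT7 from 435, 431, 433 and 374 FPKM to 515, 536, 531, 548 and 501 FPKM (0.33, 0.0281), both without overlap. With the spread of the 91 libraries neither KRT5 (0.145) nor KRT7 (0.151) was called, and KRT18 gave -0.04 (0.80). Of 14 EMT factors and cadherins TWIST1, at 3.13, 4.97, 3.09 and 4.52 FPKM with vehicle and 10, 7.1, 6.47, 8.62 and 6.72 FPKM with K-975 (0.84, 0.042), and CDH11, at 266 to 304 FPKM and 305 to 457 FPKM (0.48, 0.0428), were called higher, and CDH2 (0.20, 0.211) was not. The EMT list had 7 positive and 7 negative log2 fold changes (median 0.02), and 1.5% of all tested genes were called higher. No member of it was called in 8 of the 9 fits that left out a library, against 3 without treated replicate 2. The latter fit called 1351 of all 11657 tested genes. Among 9 IGF-binding proteins and receptors IGFBP6 was called higher (0.36, 0.0396) and IGFBP3 lower. With the spread of the 91 libraries no member of this list was called higher. The same held in every fit that left out a library except the one without treated replicate 2.

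Of 15 mesothelial markers 8 had a positive and 7 a negative log2 fold change. KRT7 was called higher and none lower, and among all tested genes 1.5% were called higher. No marker was called in 7 of the 9 fits that left out a library, against 6 without treated replicate 2. That last fit called 1351 of all 11657 tested genes. UPK1B (141 to 158 FPKM with vehicle, 101 to 144 FPKM with K-975) and THBD (15.2 to 22 FPKM and 10.1 to 16.8 FPKM) ranged lower, with overlap. The list median was 0.20, and CALB2 was at 485, 506, 486 and 554 FPKM with vehicle and 766, 537, 691, 608 and 761 FPKM with K-975 (0.39, limma adjusted p = 0.0646; with the spread of the 91 libraries 0.0179). None of the tested markers of leukocytes (4 of 19 tested), endothelium (3 of 11) or fibroblasts and pericytes (7 of 12) was called. The summed FPKM of the 19 leukocyte markers, mostly CD68, was 147.8 to 227.4 with vehicle and 134.5 to 211.6 with K-975. Without CD68 the other 18 markers summed to 4.64 to 7.01 with vehicle and 7.9 to 11.2 with K-975, so that all treated tumors lay above all vehicle tumors. Among them were ITGAM (CD11b) at 2.68, 3.49, 3.59 and 1.1 FPKM with vehicle and 2.97, 3.92, 2.96, 5.56 and 3.4 FPKM with K-975 (0.40, 0.411), CSF1R, the receptor of a macrophage growth factor, at 0.0798, 0.0757, 1.2 and 0.392 FPKM and 2.6, 1.11, 1.39, 1.84 and 1.19 FPKM (0.91, 0.0876), and S100A9, which was not tested, at 0 to 0.64 FPKM and 0.637 to 2.31 FPKM. CD14 ranged lower, at 0.905 to 3.43 FPKM with vehicle and 0.6 to 2.13 FPKM with K-975. Of the 4 tested leukocyte markers 2 had a positive and 2 a negative log2 fold change. Of single tested genes, 4.49% had all treated tumors above all vehicle tumors. The summed FPKM of the 11 endothelial markers, mostly KDR, was 35.5 to 73.3 with vehicle and 34.8 to 95.6 with K-975. The 12 fibroblast and pericyte markers summed to 1010 to 1211 and 894.8 to 1580, with COL1A1 at 444 to 559.7 FPKM and 445 to 941 FPKM and COL3A1 at 392 to 476 FPKM and 186 to 536 FPKM, and with COL1A2 listed at 0 in all 9 libraries. The levels of these human genes cannot be read as host content, and the part of these markers in the differences was not tested. Of 5 tested epidermal markers KRT5 was called higher, and KRT1 was at 0 in 8 of 9 libraries. No marker of muscle or adipocytes was tested, and 1 of 7 erythroid markers was, without being called.

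**Figure D4:**
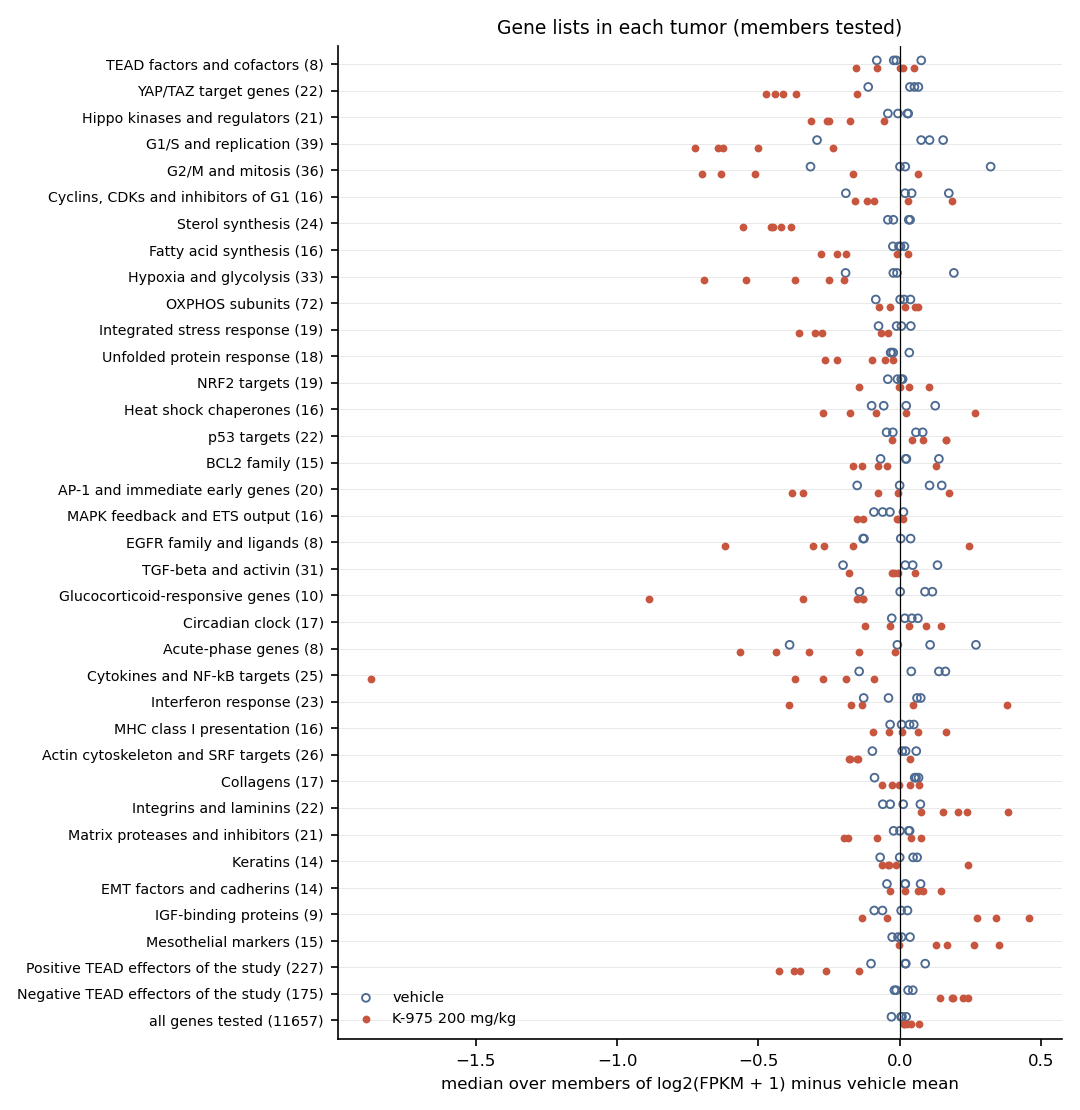
Median over the tested members of each gene list (their number in brackets) of log2(FPKM + 1) minus the vehicle mean, with 1 point for each tumor. Open circles are the 4 vehicle and filled circles the 5 treated tumors. The groups do not overlap for YAP/TAZ targets, sterol synthesis and both lists of TEAD effectors. They are only just apart for hypoxia and glycolysis (nearest tumors -0.192 and -0.196), Hippo regulators (-0.042 and -0.056) and integrins and laminins (0.0725 and 0.0761). They overlap for oxidative phosphorylation and replication genes, and 1 treated tumor lies at -1.87 for cytokines.

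Values at the lower doses of the same study are set beside those at 200 mg/kg for 6 genes, with the shallow library of each lower dose left out (n = 4 each). The doses share the vehicle tumors, and 30 and 100 mg/kg were given in 10 mL/kg, so no comparison is made. CCN2 was at 7.47 to 10.7 FPKM with 30 mg/kg, 3.9 to 9.19 FPKM with 100 mg/kg and 2.38 to 5.72 FPKM with 200 mg/kg, beside 10.9 to 16 FPKM with vehicle and 12.1 to 19.1 FPKM untreated. TEAD4 was at 39.5 to 42.6 FPKM, 27.6 to 39.8 FPKM and 26.5 to 32.9 FPKM, beside 45.8 to 52.3 FPKM with vehicle and 40.3 to 49 FPKM untreated. For WWC1 the ranges were 398 to 441 FPKM, 290.3 to 366 FPKM and 252 to 336 FPKM, against 438 to 470.2 FPKM with vehicle. PPME1 lay at 226 to 310.2 FPKM, 163 to 327 FPKM and 148 to 214 FPKM, against 366 to 579 FPKM with vehicle. TXNIP lay at 52.7 to 108 FPKM, 43.8 to 109 FPKM and 62.8 to 119.7 FPKM, against 27.8 to 45.1 FPKM with vehicle and 23.1 to 37.4 FPKM untreated. KRT34 lay at 5.01 to 13.4 FPKM, 4.3 to 19 FPKM and 2.05 to 13 FPKM, against 16.1 to 33.6 FPKM with vehicle.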

How the data were processed

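Total RNA of 94 xenograft tumors was made into KAPA RNA HyperPrep libraries with HyperCap target enrichment and sequenced in pairs on a NextSeq instrument. The submitters' processing notes name STAR and GRCh38, and the quantification tool and the handling of mouse reads are not given in the sources used here. The deposited values are FPKM, 1 column per library, scaled to the library by the authors, so a level also depends on how well a transcript was captured. Of 20555 entries, 316 repeats of a gene ID were left out, and 32 blank cells were read as 0. Coordinates of the table, counted from 1, were identical to GENCODE 29 loci for 15632 IDs. Columns not used numbered 0.

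Groups came from the labels, and replicates were numbered in accession order. Nothing but the cage group describes how the animals were handled, so p-values measure the spread between tumors of a cage group. Genes that reached an FPKM of 1 in 4 or more of the 9 libraries were fitted on log2(FPKM + 1) with limma 3.58.1 in R 4.3.3 (lmFit and eBayes, trend and robust options on), with Benjamini-Hochberg adjustment over 11657 genes and a threshold of 0.05. Fold changes on this scale understate low genes. The fit was tested on simulated data first. Alternatives were pseudocounts of 0.1 and 0.5, no filter or an FPKM of at least 5, quantile or median scaling, other estimates of the spread, other controls and each library left out. Libraries with fewer than 10000 genes at an FPKM of at least 1 (3, none of the 9) are called shallow. Relative depth came from the size of values of 993 rarely detected genes.

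The comparison and the 45 gene lists were chosen with earlier results of these data known, and lists are described by counts and medians with no test. Genes were named by a rule: TEAD factors, cofactors and YAP/TAZ targets; the 12 highest and 12 lowest called fold changes without overlap; of every other list up to 6 called and 2 uncalled members; and the 5 lowest adjusted p. Certain genes that the rule names are not reported here. Markers of host cells and genes given for a check are named beside this rule. Motifs were chosen after the values had been seen. Figures were drawn with matplotlib 3.10.9 in Python 3.11.15.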

Additional observations from a re-analysis of the deposited data

Results flagged for a closer look

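For the 151 genes followed by name, the 302 groups of 4 or 5 tumors were examined for a value apart from the rest. The measure was Dixon's ratio, the gap to the nearest tumor over the range of the group, and 25 (8.28%) had such a value. The limit is set for about 1 in 20 with independent, normally distributed values. FPKM of genes in the same tumors are not independent, and some of these genes were named after their values had been seen. The share is thus not compared with chance. Of these, 10 were values of treated replicate 2 and 8 of vehicle replicate 4.

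Treated replicate 2 was the highest treated tumor, nearest to vehicle, for F3 (116.1 FPKM, the other 4 at 19.7 to 34.2), KRT34 (13.0, others 2.05 to 4.35), NPPB (36.3, others 5.34 to 13.2), ANLN (122.5, others 67.8 to 83.2), UBE2C (145.3, others 70.6 to 91.1), SLCO2A1 (125.5, others 25.7 to 48.4) and TGFBR1 (24.7, others 14.0 to 15.5). It was the lowest treated tumor for CCND2 (6.54, others 16.8 to 19.6), for PTGIS (4559, others 6408 to 7038) and for KCND3 (20.1, others 26.7 to 29.1), so for KCND3 it was the tumor farthest from vehicle.

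Vehicle replicate 4 was the lowest of its group for CCN1 (196.4 FPKM, others 262.6 to 268.4), AXL (182.2, others 219 to 225.4), NT5E (203.2, others 274.2 to 288.1), WWC1 (438.4, others 467.5 to 470.2) and KRT7 (374, others 431.2 to 435.2), and the highest for CCDC80 (1210, others 932.7 to 971.5), ITLN1 (96.5, others 11.6 to 18.7) and SCD (1562, others 1047 to 1120). Vehicle replicate 3 was lowest for MT2A (588.5, others 806.3 to 850.6), vehicle replicate 2 for LRRC51 (0.394, others 1.37 to 1.46), and vehicle replicate 1 was highest for HECW1 (2.31, others 0.652 to 0.851).

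Treated replicate 5 was lowest for HMGCS1 (26.4 FPKM, others 38.8 to 43.5) and FASN (75.0, others 118.4 to 133.4). Treated replicate 1 was lowest for ID2 (15.7, others 24.5 to 27.2) and highest for EEIG1 (32.0, others 23.4 to 25.5).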

How the results depend on the processing

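The number of genes called at 200 mg/kg was 324 (175 higher, 149 lower). It was 77 without a filter (42 and 35), 528 with the spread of the 24 h groups (262 and 266), 1009 with the spread of all groups (519 and 490), 120 without trend and robust fitting (76 and 44) and 1224 with vehicle and untreated tumors as control (625 and 599). Leaving out 1 library gave 25 to 1351 genes, 13 to 728 higher and 12 to 623 lower. The cause was not tested. Pseudocounts of 0.1 and 0.5, an FPKM of at least 5, quantile or median scaling and untreated controls moved the total by no more than 1.5 times. Between vehicle and untreated tumors limma called 0 genes under each of 18 alternatives, with 337 to 593 at an unadjusted p under 0.05.

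Of 1712 values of the 86 called genes followed by name under these alternatives, 1129 stayed past the threshold, 583 lost it and 0 changed sign. Signs changed in 26 of 1294 values of uncalled genes, in 8 genes with log2 fold changes from -0.09 to 0.06 as reported. With 1 library left out, values ranged from -0.027 to 0.14 for TEAD1, -0.10 to 0.019 for YAP1, -0.16 to 0.17 for WWTR1, -0.065 to 0.090 for VGLL4, -0.088 to 0.16 for FOXF2, -0.13 to 0.018 for MAP4K4 and -0.063 to 0.005156 for KRT18. Untreated controls gave -0.047 for TEAD1, 0.060 for VGLL3, -0.28 for FOXF2 and 0.072 for MAP4K4, and both controls together gave -0.0005495, -0.13 and 0.018 for TEAD1, FOXF2 and MAP4K4. Quantile scaling gave -0.031 for WWTR1 and -0.059 for FOXF2, and equal medians gave -0.021 for WWTR1 and -0.00647 for VGLL4.

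Of 859 medians of gene lists under these alternatives, 18 moved by more than the SD between tumors. Beside the Hippo and TGF-beta lists, the sign changed against untreated tumors for p53 targets (-0.01, from 0.07), collagens (0.02, from -0.04) and EMT factors (-0.09, from 0.02, and -0.08 without vehicle replicate 1). It changed with an FPKM of at least 5 for clock genes (-0.07, from 0.17, and -0.05 without treated replicate 4), the xenobiotic response (-0.02, from 0.46), leukocytes (-0.17, from 0.11), endothelium (0.40, from -0.22) and fibroblasts and pericytes (-0.07, from 0.17), where fewer genes were tested.

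No paired analysis was possible because replicate numbers follow the order of the accessions and pair no animals. Depth is unknown for FPKM, so no counting interval can be given, and genes of low FPKM are the least certain. Each group is 1 cage group of the labels, and which mouse reads were removed is not given in the sources used here.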

Other observations

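The 23 genes called with any 1 library left out included 7 that belong to no list described above, and those named here were chosen after their values had been seen. In 6 of the 7 the treated tumors were higher. ST3GAL5, which makes the ganglioside GM3, was at 15.5, 11.6, 12.8 and 13.4 FPKM with vehicle and 44.7, 23.9, 41.9, 35.8 and 36.6 FPKM with K-975 (log2 fold change 1.37, SE 0.17, limma adjusted p = 0.0061). IFT80, of the transport complex of cilia, was at 66 to 75.6 FPKM with vehicle and 115 to 172 FPKM with K-975 (0.87, 0.0063). PTGIS, the prostacyclin synthase, was at 3411 to 3819 FPKM and 4559 to 7038 FPKM (0.74, 0.00851). S100A6, a calcium-binding protein, was at 269.7 to 302 FPKM and 391 to 597 FPKM (0.75, 0.00851), and TRIM16L gave 0.90 (0.0102). TRIM16L is a near copy of TRIM16, so reads could be shared.

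LIFR, the receptor of leukemia inhibitory factor, was the lower one of the 7, at 91.5, 115, 93.5 and 132 FPKM with vehicle and 50.8, 52.6, 51.2, 60.1 and 64.8 FPKM with K-975 (log2 fold change -0.93, SE 0.12, limma adjusted p = 0.0063). In none of the 7 did the groups overlap, as in 294 of the 324 called genes, and the choice of these genes favors that pattern. Among all tested genes 4.49% had all treated tumors above and 3.54% all below the vehicle tumors.

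The highest fold change of a called gene was that of ITLN2, an intelectin, which was not named by the rule because its groups overlapped. ITLN2 was at 4.4, 1.9, 2.91 and 6.89 FPKM with vehicle and 44.4, 3.95, 25.6, 30.1 and 33 FPKM with K-975 (log2 fold change 2.29, SE 0.55, limma adjusted p = 0.0477), with treated replicate 2 within the vehicle range and the other 4 treated tumors above it. Its neighbor ITLN1 (omentin), known from mesothelium, differed between tumors in a similar way. It was at 11.6, 18.7, 11.8 and 96.5 FPKM with vehicle and 478, 7.09, 243, 249.5 and 551 FPKM with K-975, where treated replicate 2 was the lowest of the 9 tumors, and it did not pass the test (2.83, SE 1.30, limma adjusted p = 0.257). Both are similar paralogs that could share reads. BCO2, a carotenoid oxygenase, was called higher (1.64, 0.0377) and SLCO2A1, the prostaglandin transporter, at 121 to 144 FPKM with vehicle and 25.7 to 126 FPKM with K-975, was called lower (-1.58, 0.0428), both with groups that overlapped. These genes were chosen for naming after their values had been seen.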
